A study of Mus musculus with 31 samples.

Results

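RNA-Seq of whole hearts was used to compare 6 female mice with both Bdnf alleles changed to Met (Met/Met) with 4 female mice with 1 Met allele (Val/Met), 10 of the 31 hearts of the series, which asks what the second Met allele adds to the first. The 10 were chosen by their labels alone, as hearts whose titles mark a female and whose genotype is Val/Met or Met/Met. The other hearts came from 6 female Val/Val, 5 male Val/Val, 6 male Val/Met and 4 male Met/Met mice. They are used here for reference and in the estimate of the spread. All mice were 8 weeks old, and each heart was 1 sample. The labels give hBDNF as the transgene of every mouse, Val/Val included. Per the study's methods, the Met allele is a knock-in of the human BDNF sequence, the mice came from heterozygous breeders, and littermates were used wherever possible. Its limits as a model, as the study states them, are that human BDNF with Met was set against mouse BDNF in the controls, and that whole hearts hold many cell types.

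BDNF is a neurotrophin that is made as a precursor, sorted for regulated release and bound by the receptor TrkB. The Val66Met change lies in the part of the precursor that is cut away, and is known for lowering the activity-dependent release of BDNF from neurons. In the heart, BDNF signalling is known for effects on myocyte contraction and on vessels. Cardiac muscle also runs its own circadian clock, in which the proteins CLOCK (or NPAS2) and BMAL1 switch on their own repressors, the PER and CRY proteins, while REV-ERB and ROR proteins compete over the gene of BMAL1. The PAR bZIP factors DBP, TEF and HLF, and their competitor NFIL3, pass that rhythm on to other genes.

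The deposited values are normalized gene counts. Leaving out Gm4613, a pseudogene, the 10 hearts had totals from 29071299 to 29459862 units, which is as much as the table shows of their depth. Gm4613 stood apart in Val/Met replicate 5, where its value raised the sum of the heart to 66645780. Numbers of reads cannot be had from these values, so the precision given is the spread between hearts of a group, taken within the label series described next. The labels place 2 Val/Met and 3 Met/Met hearts in each of 2 label series, the first number of the sample label. In each group the mean log2 values of both label series differed by at most 1.02e-05 in any gene, so a fold change taken in 1 series is that of the pooled hearts and is no check of it. Variation of a group's mean between label series can therefore not be seen in these values. The standard errors and p-values given do not include it. It also means that Val/Met replicates 1 and 2, and likewise 5 and 6, mirror each other on the log scale, since a heart above the mean leaves its partner as far below it. Each male genotype had 1 heart in a further label series, 2970. That heart lay at the mean of its group, as male Met/Met replicate 4 did for Dbp (1559 units). It adds no spread of its own, yet the fit weighs it as a full heart. Standard errors of male changes and of differences between the sexes are therefore smaller than the remaining hearts would give.

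Of 13733 genes with a mean of at least 29 deposited units, 77 passed a p under 0.05 with a change of at least 1.5-fold between Met/Met and Val/Met hearts (0.561% of genes), and these are the genes said below to be called, to have risen or to have fallen at 1.5-fold. There were 26 higher in Met/Met hearts (0.189%) and 51 lower (0.371%). With p-values adjusted over all genes tested, 4 genes passed (0.0291%), namely Dbp, Tcap and Zbtb16, which were lower, and Nfil3, which was higher. With the replicate number as a block, 2 genes passed, Dbp and Tcap. At any fold, 704 genes had a p under 0.05 (5.13%), 356 of them higher (2.59%) and 348 lower (2.53%) in Met/Met hearts. The median log2 fold change of all genes was 0.005 with a median standard error of 0.11. In 344 genes (2.5%) no Met/Met heart lay within the range of the Val/Met hearts, and 29 of the 77 called genes were among them, 13 higher and 16 lower. The 77 genes held 62 protein-coding genes (80.5%), against 86.2% of all genes tested.

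**Figure D1:**
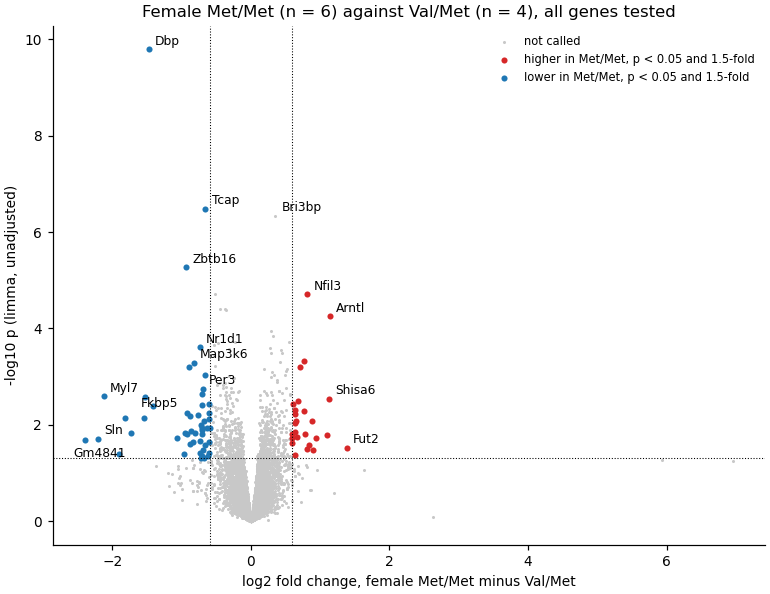
The log2 fold change of each of 13733 genes, female Met/Met minus Val/Met, is plotted against -log10 of the unadjusted limma p, with dotted lines at 1.5-fold and at a p of 0.05. Blue points are the 51 genes lower and red points the 26 genes higher in Met/Met hearts, Dbp stands highest, and the pair of grey points near 6 and 7, Gm7206 and Gm5586, have p-values above 0.05.

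The targeted gene itself, Bdnf, was at a low level in all hearts. It was at 322, 172, 257 and 216 units in the Val/Met hearts, replicates 1, 2, 5 and 6 (the order used throughout), and between 162 and 272 units with a median of 176 in the Met/Met hearts. The groups overlapped, and the log2 fold change was -0.28 ± 0.20 (SE), which did not pass the test. Reads were aligned to the mouse genome, while the study describes the Met allele as human sequence. Both alleles of Met/Met hearts and 1 allele of Val/Met hearts are of that kind. Whether reads of such an allele map equally well to the mouse gene was not tested. A transcript level does not show which allele was present, so it checks no label. Of the 26 genes of the Bdnf pathway list, 16 were tested, and 1 was higher and 1 lower at a p under 0.05, none at 1.5-fold, with a median log2 fold change of 0.01. Sort1, which codes for sortilin, the sorting receptor that binds the BDNF precursor, was lower by -0.24 ± 0.11, with 1 Met/Met heart, replicate 4, above all the Val/Met hearts. The adjusted p of Sort1 was 0.961.

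The circadian clock list was the one with most members past the test. Of its 21 genes, all tested, 15 had a p under 0.05, 5 higher and 10 lower in Met/Met hearts, and 8 were also called at 1.5-fold, 2 higher and 6 lower. Dbp, Nfil3 and Tef (3 genes) had an adjusted p under 0.05. The groups did not overlap in 7 of the 21. Of all genes tested, 5.13% had a p under 0.05, 0.561% were called and 2.5% did not overlap. The list's median log2 fold change was -0.28, and its members ran from -1.47 to 1.14. The list held genes of opposite phase, so its median says little of the single members. Neither the labels nor the study's methods give the time of day at which a heart was taken.

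The stretches of promoter below show the elements through which the clock proteins are known to act, for those clock genes that changed and that carry one upstream of a RefSeq start. Capitals mark the element in each, which is the E-box CACGTG bound by CLOCK and BMAL1, the D-box TTATGTAA bound by the PAR bZIP factors and NFIL3, or the ROR element TAGGTCA read on the other strand. The sequences are from RefSeq on GRCm38.p6 and run 5′ to 3′ on the strand of the gene. RefSeq and the annotation used for gene positions differ in some starts, and the stretches of Nfil3 and Tef lie within the annotated bounds of these genes.
Ciart, chr3:95882261-95882306, minus strand: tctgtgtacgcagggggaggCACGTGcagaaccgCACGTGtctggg
Tef, chr15:81802526-81802571, plus strand: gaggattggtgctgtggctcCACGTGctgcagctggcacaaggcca
Cry1, chr10:85185089-85185134, minus strand: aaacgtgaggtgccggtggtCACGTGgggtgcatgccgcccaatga
Per3, chr4:151044843-151044890, minus strand: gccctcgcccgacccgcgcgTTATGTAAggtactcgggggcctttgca
Per3, chr4:151044796-151044843, minus strand: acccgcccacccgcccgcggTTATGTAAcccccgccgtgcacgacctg
Nfil3, chr13:52981040-52981071, minus strand: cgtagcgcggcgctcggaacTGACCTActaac

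These elements were searched on both strands in windows from 250 bases before to 50 bases after each start, which 12 of the 15 changed clock genes had. An E-box was found for Ciart, Tef and Cry1, a D-box (TTATGTAA or TTACGTAA) for Per3, and a ROR element (TAGGTCA or TGGGTCA) for Arntl and Nfil3. Among the 9758 tested genes with a window, 11.8% held an E-box, 0.851% a D-box and 6.05% a ROR element. A match is a description of these letters and no evidence of binding. Elements further away or inside the gene, where several clock genes are known to carry theirs, lie outside these windows.

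Dbp, the PAR bZIP activator at the output of the clock (chr7:45705088-45710203), showed the smallest p of all genes. It was at 3807, 3451, 3614 and 3636 units in the Val/Met hearts and between 1107 and 1502 units, with a median of 1325, in the Met/Met hearts. The gap between the groups was larger than the range of either. The log2 fold change was -1.47 ± 0.13 (SE), or 2.77-fold lower in Met/Met hearts, with an adjusted p of 2.2e-06 (limma, Benjamini-Hochberg). Val/Val females, at 3640 to 4368 units, lay with the Val/Met hearts. The adjusted p of Dbp was at most 0.00027 under every alternative tried, leaving out each heart among them.

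Its relatives moved less. Tef was at 5373, 3873, 4878 and 4266 units in Val/Met hearts and between 2746 and 3657 units, median 3236, in Met/Met hearts, so that the groups did not overlap. Its log2 fold change of -0.52 ± 0.10 had an adjusted p of 0.0445, but was smaller than 1.5-fold, and the adjusted p reached 0.676 over the alternatives, in the fit of the 10 hearts alone. Hlf had a log2 fold change of -0.28 ± 0.14 and did not pass the test. Nfil3, the repressor that competes with these activators for the same sites (chr13:52967209-52981073), was at 146, 210, 188 and 164 units in Val/Met hearts and between 243 and 375 units, median 315, in Met/Met hearts. Every Met/Met heart was above every Val/Met heart, by 0.81 ± 0.15 on the log2 scale (1.76-fold, adjusted p 0.0445). Its adjusted p rose to 0.41 at the most over the alternatives, which kept the call at an unadjusted p in each of the 21 it was tested in.

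Of the genes of the positive arm of the clock, Arntl and Npas2 were higher in Met/Met hearts and Clock did not pass. Arntl, the gene of BMAL1 (chr7:113207465-113314126), was at 99.6, 299.9, 161 and 186 units in Val/Met hearts and between 285 and 442 units, median 398, in Met/Met hearts. Only Val/Met replicate 2 reached into the Met/Met range, above the lowest Met/Met heart, replicate 2. The log2 fold change was 1.14 ± 0.23, or 2.21-fold, with an adjusted p of 0.0773. Npas2, which codes for a partner of BMAL1, was between 82.2 and 98.5 units in Val/Met and between 109 and 144 units in Met/Met hearts, without overlap (log2 fold change 0.51 ± 0.13). Clock, which codes for the other partner, had a log2 fold change of 0.18 ± 0.19 and did not pass.

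Nr1d1, the gene of REV-ERB alpha, was at 3317, 5124, 3837 and 4429 units in Val/Met hearts and between 1554 and 3459 units, median 2528, in Met/Met hearts. Met/Met replicate 4 alone overlapped the Val/Met range, and the log2 fold change was -0.74 ± 0.17 (1.67-fold lower, adjusted p 0.19). Nr1d2, the gene of REV-ERB beta, had a log2 fold change of -0.70 ± 0.22, Per3 of -0.70 ± 0.20, Per2 of -0.68 ± 0.23 and Ciart, which codes for a further repressor of CLOCK and BMAL1, of -0.83 ± 0.34. These 4 genes overlapped between the groups and were all highest in Val/Met replicate 1. Without that heart, 4 of the 8 called clock genes stayed called, 2 higher and 2 lower. The log2 fold changes of Nr1d2, Per2 and Per3 were then -0.56, -0.46 and -0.49, and that of Ciart was -0.56. Ciart was also not called without Val/Met replicate 5 or Met/Met replicate 3, at -0.74 and -0.68.

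Bhlhe40, which codes for the repressor DEC1, was between 1931 and 2318 units in Val/Met hearts and between 1253 and 1710 units in Met/Met hearts, without overlap, and its log2 fold change was -0.54 ± 0.12. Cry1, a repressor whose peak is known to come later than that of the Per genes, went the other way. It was between 176 and 243 units in Val/Met hearts and between 259 and 347 units in Met/Met hearts (log2 fold change 0.52 ± 0.13), again without overlap. Cry2 (-0.28 ± 0.10) and Usp2, the gene of a deubiquitinase under clock control (-0.30 ± 0.10), were lower with overlap. Bhlhe41, Per1, Rora and Rorb had log2 fold changes of -0.09, -0.35, -0.21 and 0.01 and did not pass.

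**Figure D2:**
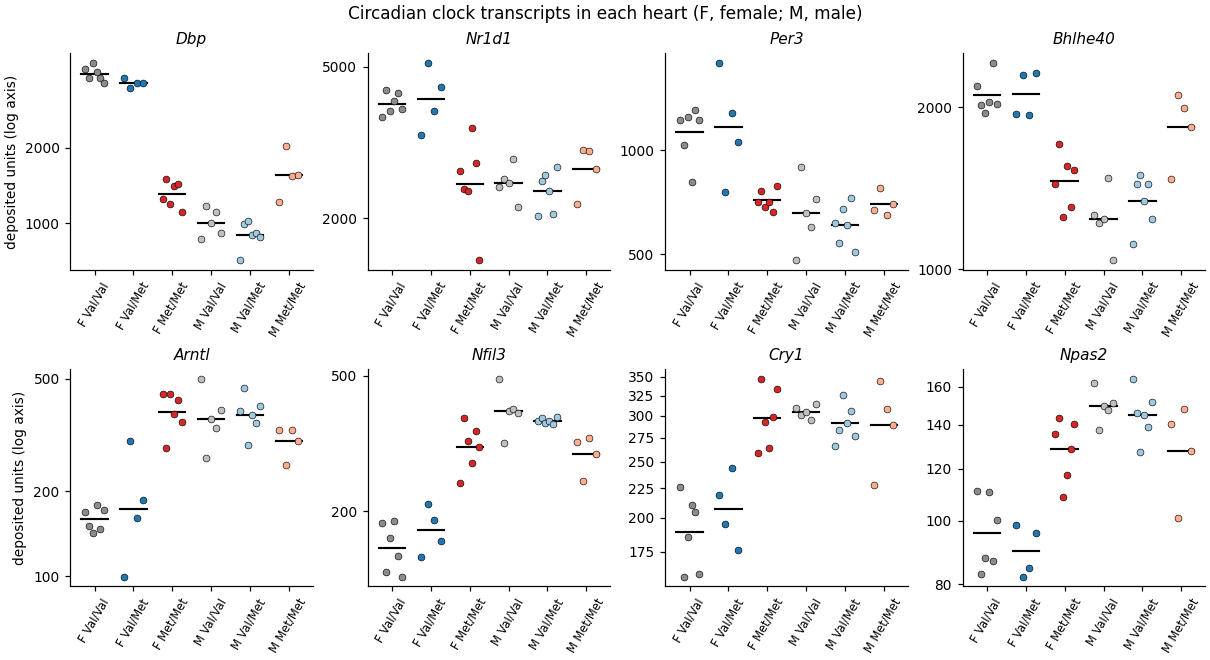
Deposited units on a log axis for 8 clock genes, with 1 point for each heart and a bar at the geometric mean of each of 6 groups of sex and genotype. Most female Met/Met hearts lie below the female Val/Val and Val/Met hearts for the 4 genes of the top row and above them for the 4 of the bottom row, on the side of the male hearts, except that male Met/Met hearts reach the upper range for Bhlhe40 (1470 to 2108 units).

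The other groups placed these genes further. For the 15 clock genes with a p under 0.05, the mean of the female Val/Val hearts lay nearer to Val/Met than to Met/Met in 15 of 15, and beyond the Val/Met mean in 8. The mean of the male hearts lay nearer to female Met/Met in 13, 14 and 12 of the 15, for Val/Val, Val/Met and Met/Met. Among all 77 called genes the same held in 63, 59 and 55, so this placing was not particular to clock genes. Dbp, for example, was at 862 to 1169 units in male Val/Val, 712 to 1018 in male Val/Met and 1216 to 2026 in male Met/Met hearts. The change from Val/Met to Met/Met differed between the sexes at a p under 0.05 in 16 of the 21 clock genes, against 13.8% of all genes tested. The female change enters this difference, and the list was chosen with earlier results of these data known, so the choice itself favours the count. In male hearts Dbp was higher in Met/Met than in Val/Met, by 0.80 ± 0.13 on the log2 scale, and the difference of the changes, female minus male, was -2.27 ± 0.18 with an adjusted p of 4.4e-07. For Bhlhe40 that difference was -0.99 and for Nfil3 1.14, with adjusted p-values of 0.015 and 0.0211.

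Tcap was the second gene by p among those called. It codes for telethonin, the cap that joins a pair of titin ends at the Z disc (chr11:98383811-98384953). It was at 22208, 23121, 21193 and 24229 units in Val/Met hearts and between 13686 and 14875 units, with a median of 14350, in Met/Met hearts. The groups lay far apart, the lowest Val/Met heart being above the highest Met/Met heart by more than the range of either group. Tcap fell by 0.66 on the log2 scale (SE 0.09, 1.58-fold lower, adjusted p 0.00208), and its adjusted p was at most 0.0197 under every alternative tried. Female Val/Val hearts were at 21314 to 27565 units, with the Val/Met hearts. In male hearts Tcap lay between 10939 and 17440 units in every genotype, and there the log2 change from Val/Met to Met/Met was 0.32, so that the difference of the changes was -0.98 with an adjusted p of 0.000965.

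Other genes of the sarcomere did not move with Tcap. Of the 25 genes of the contractile apparatus list, all tested, Tcap was the 1 with a p under 0.05, and the list's median log2 fold change was -0.02. Myl2, the ventricular regulatory light chain gene, was at 66903 to 88891 units in Val/Met and 67253 to 74159 units in Met/Met hearts. In the calcium handling list, 2 of 19 genes tested were lower at a p under 0.05 and none was higher. Hrc, a calcium-binding protein gene of the sarcoplasmic reticulum, had a log2 fold change of -0.19 ± 0.07, and the other was Sln, described below among the atrial genes. Atp2a2, the gene of the calcium pump SERCA2, was at 506496 to 647313 units in Val/Met and 588745 to 623555 units in Met/Met hearts, and its log2 fold change of 0.10 ± 0.12 did not pass. At this level many hearts carry exactly the same value, and Met/Met replicates 1 and 3 were both at 623555 units. Of the genes the study itself named, 13 were tested, and 2 had a p under 0.05, both lower, of which Tcap alone was called, with the list having been chosen by the study on these samples. Nppb, the gene of B-type natriuretic peptide, was at 1285 to 1879 units in Val/Met and 1336 to 6209 units in Met/Met hearts (log2 fold change 0.59 ± 0.30), and did not pass. Nppb was called with 1 mean per group and with an additive term for the label series. It was also called without Met/Met replicate 1, 3 or 4 (0.71, 0.76 and 0.68). In these 5 fits its limma adjusted p was at least 0.407. Without Met/Met replicate 2, the heart at 6209 units, its log2 fold change was 0.31, the lowest of the alternatives.

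Zbtb16, a transcription factor gene that is known to be induced by glucocorticoids (chr9:48654297-48836222), was at 8283, 7222, 8154 and 7336 units in Val/Met hearts and between 3395 and 4929 units, median 3999.7, in Met/Met hearts. The groups did not overlap, and the log2 fold change was -0.94 ± 0.16 (1.91-fold lower, adjusted p 0.0185). Over the 22 alternatives the adjusted p reached 0.109, and the call at an unadjusted p was kept in each. Zbtb16 was lower in the Val/Val females (3693 to 6801 units) than in any Val/Met heart. The male hearts changed in the same direction, by -0.61 on the log2 scale, and the difference between the sexes did not pass.

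Fkbp5, which codes for a co-chaperone of the glucocorticoid receptor, was at 1736, 1765, 1889 and 1622 units in Val/Met hearts and between 558 and 1785 units, median 911, in Met/Met hearts. The Met/Met range was wide, with replicate 2 among the Val/Met values, and the log2 fold change was -0.92 ± 0.30 (adjusted p 0.652). Of the glucocorticoid target list, 19 of 20 genes were tested, 3 were lower at a p under 0.05 and none was higher, with a median log2 fold change of -0.16. The median was -0.01 without Val/Met replicate 1, and -0.04 and -0.08 without Met/Met replicates 3 and 4, and -0.11 with the replicate block. Beside Zbtb16 and Fkbp5, the list's other gene past the test was Sult1a1, which codes for a sulfotransferase (-0.38 ± 0.13). Map3k6, which belongs to no list, was between 721 and 811 units in Val/Met and between 329 and 651 units in Met/Met hearts, and its log2 fold change was -0.83 ± 0.20. Timp4, the gene of a metalloproteinase inhibitor of heart tissue, was between 1058 and 1295 units in Val/Met and between 537 and 952 units in Met/Met hearts (-0.60 ± 0.19). The change of Timp4 was -0.45 with the replicate block, and -0.55, -0.56 and -0.50 without Val/Met replicate 1, Met/Met replicate 3 and Met/Met replicate 4, all below 1.5-fold, as it was with an offset of 29 units (-0.58). Val/Val females lay below every Val/Met heart for Fkbp5 (837 to 1619 units) and Map3k6 (441 to 631 units).

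**Figure D3:**
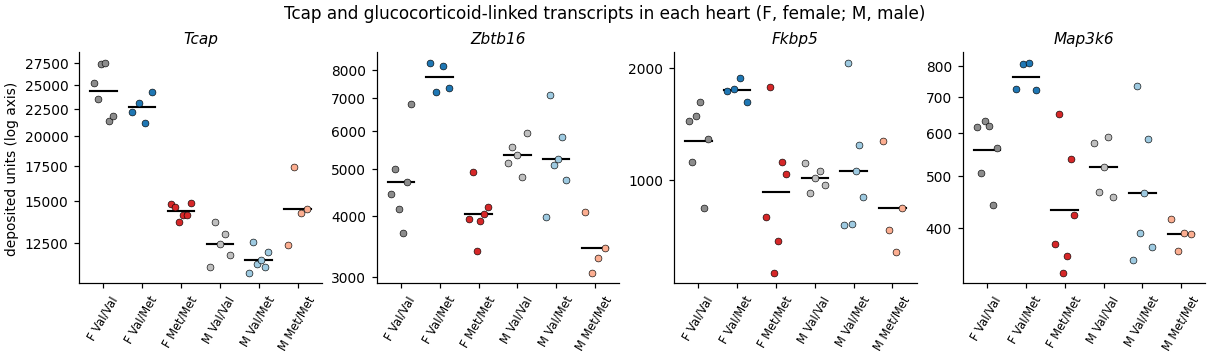
Deposited units on a log axis for Tcap, Zbtb16, Fkbp5 and Map3k6, with 1 point for each heart and a bar at the geometric mean of each of 6 groups of sex and genotype. For Tcap the female Val/Val and Val/Met hearts stand above all others, while for the other genes the female Val/Met hearts lie above the female Val/Val hearts as well.

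Atrial genes were among the largest falls. Of 14 atrial markers, 11 were tested, and all 11 had a lower mean in Met/Met hearts, 3 of them called, with a list median of -0.30. Myl7, the atrial regulatory light chain gene, was at 98.3, 619, 229 and 266 units in Val/Met hearts and between 36 and 95.1 units, median 51, in Met/Met hearts, a log2 fold change of -2.13 ± 0.62 (4.36-fold lower, adjusted p 0.489). Sln, the gene of sarcolipin, was at 47.8, 428, 120.1 and 171 units in Val/Met and between 21.1 and 44.3 units in Met/Met hearts, and its log2 fold change was -2.21 ± 0.87. Myl4, the atrial essential light chain gene, had one of -1.73 ± 0.65. In whole hearts, fewer atrial cells in a sample and less RNA per cell cannot be told apart.

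These genes were not evenly raised among the Val/Met hearts. Val/Met replicate 2 was the highest of the 10 hearts for 8 of the 11 atrial markers and for 6 of 9 mesothelial and epicardial markers. The summed level of the 12 atrial markers in the table was between 9003 and 17523 units in Val/Met hearts, highest in replicate 2, and between 8593 and 9919 units in Met/Met hearts, with 8761 to 15705 units in Val/Val females. The mesothelial and epicardial markers summed to between 1731 and 7092 units in Val/Met hearts, again highest in replicate 2, and between 1503 and 2599 units in Met/Met hearts, with a median log2 fold change of -0.67 and none of 9 past a p under 0.05. With the replicate block, 4 of these 9 and 4 atrial genes were called lower, and without Val/Met replicate 1 there were 4 and 5. The part of mesothelial and epicardial tissue in the atrial values was not tested. Without Val/Met replicate 2, 1 of the 3 atrial genes, Myl7, stayed called, and the log2 fold changes of Sln and Myl4 were -1.68 and -1.28. Nppa, the gene of atrial natriuretic peptide, was at 1796, 6380.2, 3010.5 and 3807 units in Val/Met and 1324 to 3552 units in Met/Met hearts, and its log2 fold change of -0.82 ± 0.43 did not pass. Nppa was called with 1 mean per group, with an additive term for the label series and in the fit of the 10 hearts alone. It was also called without Val/Met replicate 1 or Met/Met replicate 2. In these 5 fits its limma adjusted p was at least 0.415. Without Val/Met replicate 2, the heart at 6380.2 units, its log2 fold change was -0.52, the smallest fall of the alternatives.

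Some genes that interferon gamma is known to induce were lower in Met/Met than in Val/Met hearts, and their values were high in only part of the Val/Met hearts. Igtp, the gene of an immunity-related GTPase (chr11:58199556-58207591), was at 345 and 364 units in Val/Met replicates 1 and 5 and at 1307 and 1239 units in replicates 2 and 6. The 6 Met/Met hearts were between 295 and 460 units, with a median of 356, alongside the lower pair. Its log2 fold change was -0.87 ± 0.29 (adjusted p 0.674). Its neighbour Irgm2 followed the same hearts, at 712 and 853 units in Val/Met replicates 1 and 5, at 2542 and 2123 units in replicates 2 and 6, and at 671 to 1020.1 units in Met/Met hearts, with a log2 fold change of -0.77 ± 0.25. Female Val/Val hearts were at 291 to 371 units for Igtp and at 745 to 901 units for Irgm2, with the Met/Met hearts. Val/Met replicates 2 and 6 were thus the female hearts that stood apart in both genes. Irgm2 and Igtp overlap in the annotation, so their reads may be shared between them.

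The promoters of both genes, and that of B2m, which codes for the light chain of class I molecules, are shown because each holds upstream of a RefSeq start the core of the interferon-stimulated response element, searched as GAAA, any 2 bases and GAAA again, and marked in capitals.
Igtp, chr11:58199502-58199551, plus strand: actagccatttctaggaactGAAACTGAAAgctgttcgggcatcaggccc
Irgm2, chr11:58214893-58214942, plus strand: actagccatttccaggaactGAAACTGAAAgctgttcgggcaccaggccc
B2m, chr2:122147528-122147577, plus strand: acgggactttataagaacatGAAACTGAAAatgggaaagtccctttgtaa

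The stretches of Igtp and Irgm2 are nearly alike, and the genes belong to the same family. The stretch of Irgm2 lies within the bounds of that gene in the annotation, which starts it further upstream. Of the 46 interferon and antigen presentation genes with a window, 21 held the element on either strand (45.7%), against 3.65% of the tested genes with one. Of the 39 interferon genes tested, 5 were lower at a p under 0.05 and none was higher. The 3 called at 1.5-fold were Igtp, Irgm2 and Iigp1 (-0.67 ± 0.32), and the median of the list was -0.16. Of 22 antigen presentation genes, all had a lower mean in Met/Met hearts, 4 at a p under 0.05, and the median was -0.28. H2-Q6 and H2-Q7, a pair of like class I genes whose reads may be shared, were called (-0.62 ± 0.29 and -0.61 ± 0.27), and B2m (-0.49 ± 0.18) and H2-K1 (-0.44 ± 0.18) changed by less than 1.5-fold. For B2m, female Val/Val hearts were at 2511 to 3264 units, within the range of the Met/Met hearts (2363 to 3573 units). With the replicate block, Iigp1 (-0.61) and H2-Q6 (-0.67) were not called. In a fit of the 10 compared hearts alone, none of these 5 genes was called, with unadjusted p-values of 0.0521 for Igtp, 0.051 for Irgm2, 0.0517 for Iigp1, 0.0688 for H2-Q6 and 0.0838 for H2-Q7 (limma). With an offset of 29 units before the log, H2-Q6 and H2-Q7 were below 1.5-fold (-0.56 and -0.54). Of the 10 fits that each left out 1 heart, Iigp1 lost its call in 7, H2-Q6 in 6 and H2-Q7 in 5.

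Val/Met replicates 2 and 6 were among the 2 highest of the 10 hearts in 41 and in 51 of these 61 genes. Replicates 1 and 5 were so in 2 and in none. These mirror 2 and 6 on the log scale, so their low places follow from the high ones. Without replicate 2, 3 interferon genes and no antigen presentation gene had a p under 0.05, none of them at 1.5-fold, and the same counts were found without replicate 6. Without replicate 1, there were 13 interferon and 10 antigen presentation genes, and without replicate 5, there were 11 and 12. By the same mirroring, these fits are not separate checks. A pair of GTPase genes on chromosome 18 followed the same hearts. Gm4841 was at 51.6, 285, 27.7 and 531 units and F830016B08Rik at 1365, 1689.6, 606 and 3805 units in Val/Met replicates 1, 2, 5 and 6, with log2 fold changes of -2.39 ± 0.96 and -1.54 ± 0.52. Gm4841 was not called without replicate 2 or without replicate 6 (-1.98 and -1.68). The leukocyte markers, 13 in the table, summed to 6028 to 8528 units in Val/Met and to 5899 to 9092 units in Met/Met hearts and did not separate the groups. Their part in the interferon values was not tested.

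In male hearts Igtp went the other way. It was at 659 to 735 units in male Met/Met hearts and at 269 to 360 units in male Val/Met hearts, without overlap. The change from Val/Met to Met/Met differed between the sexes at a p under 0.05 in 17 of the 39 interferon genes. It did so in 21 of the 22 antigen presentation genes, against 13.8% of all genes tested. Both lists were chosen with earlier results of these data known, and the female change enters the difference, so these counts are no separate check. The difference of the changes, female minus male, was -2.03 for Igtp (adjusted p 0.0349), -2.39 for H2-Q6 (0.015) and -1.41 for B2m (0.0184). The male log2 changes were 1.16, 1.77 and 0.93 for these genes, against -0.87, -0.62 and -0.49 in females. The male rise was thus the larger part of each difference.

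**Figure D4:**
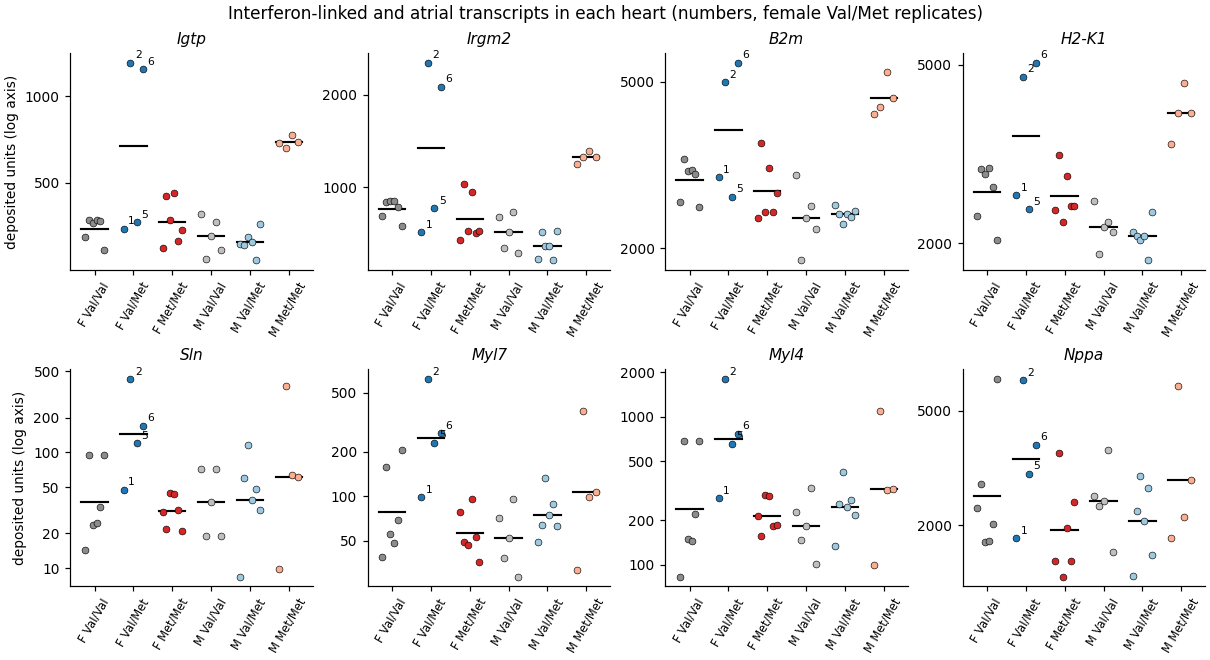
Deposited units on a log axis for 4 interferon-linked and 4 atrial genes, with 1 point for each heart, a bar at the geometric mean of each group, and the replicate number beside each female Val/Met heart. Val/Met replicates 2 and 6 stand above 1 and 5 in the top row, and replicate 2 is the highest Val/Met heart for each gene of the bottom row.

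Of the genes that rose, the largest rises without overlap were at low levels. Fut2, a fucosyltransferase gene, was between 11.8 and 19.5 units in Val/Met and between 29.2 and 61.2 units in Met/Met hearts, a log2 fold change of 1.39 ± 0.60 (adjusted p 0.882), and was not called with the replicate block or without Val/Met replicate 2, Val/Met replicate 5 or Met/Met replicate 6 (its log2 fold change was 1.14 with the block). Shisa6, which codes for an accessory protein of glutamate receptors, was between 24.4 and 39.5 units in Val/Met and between 48.8 and 80.4 units in Met/Met hearts (1.13 ± 0.33). Cma1, the gene of mast cell chymase, was between 16.7 and 28.4 units in Val/Met and between 28.4 and 61.4 units in Met/Met hearts (0.84 ± 0.35), the groups meeting near 28 units. It was not called without Val/Met replicate 1, Val/Met replicate 5 or Met/Met replicate 2 (0.71, 0.75 and 0.71).

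Inhbb, the gene of the activin beta B subunit, was between 49.5 and 76.9 units in Val/Met and between 84.4 and 129.9 units in Met/Met hearts (0.70 ± 0.17). Fam124b rose by 0.88 ± 0.30 and Dnd1, which codes for an RNA-binding protein of germ cells, by 0.77 ± 0.19. The adjusted p of these 3 genes was at least 0.267. With an offset of 29 units before the log, the changes of Fam124b, Cma1, Dnd1 and Inhbb were below 1.5-fold. Bri3bp, which rose by less than 1.5-fold, had the smallest adjusted p of all rises, 0.00208, which was 0.294 in the fit of the 10 hearts alone and at most 0.0471 under the other alternatives. It was between 1207 and 1262 units in Val/Met and between 1482 and 1636 units in Met/Met hearts (0.35 ± 0.05). Nkx2-5, a cardiac transcription factor gene and the 1 of 10 cardiomyocyte markers past a p under 0.05, had a log2 fold change of 0.29 ± 0.07.

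Further genes fell without overlap. Fmod, the gene of the collagen-binding proteoglycan fibromodulin, was between 194 and 342 units in Val/Met and between 85.2 and 167 units in Met/Met hearts (-0.97 ± 0.45, adjusted p 0.956). It lost its call in 7 of the 10 fits that each left out 1 heart. Chrdl1, the gene of a BMP antagonist, had a log2 fold change of -0.88 ± 0.37 and lost its call without Val/Met replicate 2, Val/Met replicate 5 or Met/Met replicate 5. Angptl7, an angiopoietin-like gene, was between 39.9 and 44.1 units in Val/Met and between 9.76 and 39.1 units in Met/Met hearts (-0.92 ± 0.35). With an offset of 29 units before the log, Angptl7 (-0.44) and Chrdl1 (-0.57) were below 1.5-fold. Of 28 extracellular matrix genes tested, none had a p under 0.05, and their median was -0.08. Mfap5, a microfibril gene among the fibroblast markers, was lower without overlap by less than 1.5-fold (-0.46 ± 0.13).

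Chac1, which codes for a glutathione-degrading enzyme induced by ATF4, was at 232, 147, 182 and 187 units in Val/Met hearts and between 80.2 and 119 units in Met/Met hearts (-0.89 ± 0.22). It was the 1 gene called among 20 tested of the unfolded protein and integrated stress response list, whose median was -0.03. Gm43302, a protein-coding gene model, was between 68.8 and 159 units in Val/Met and between 22.4 and 47 units in Met/Met hearts (-1.53 ± 0.45). In this gene too Val/Met replicates 2 and 6 were the highest.

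**Figure D5:**
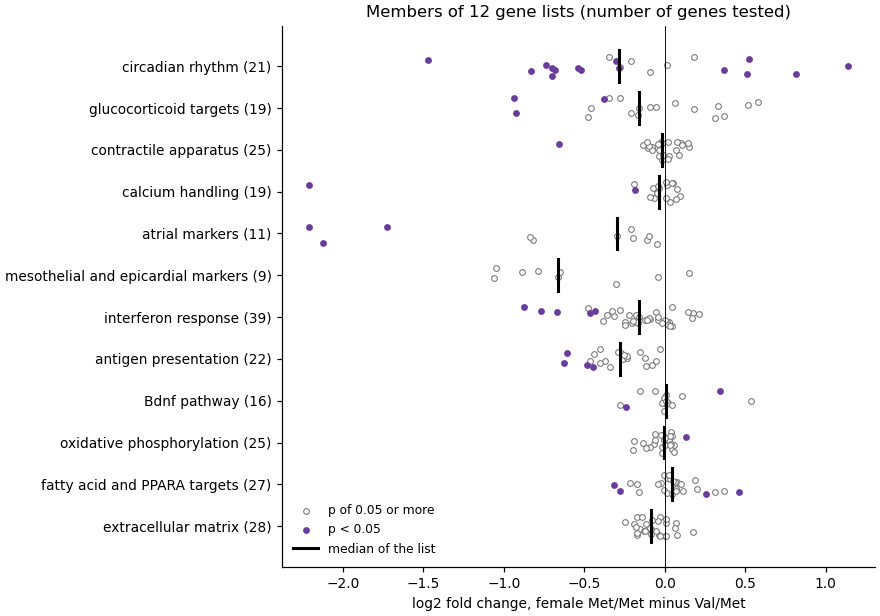
Log2 fold changes, female Met/Met minus Val/Met, of the tested members of 12 gene lists, with 1 point for each gene, filled where the p was under 0.05, and a bar at the median of each list. Clock genes spread to both sides from -1.47 to 1.14, atrial and antigen presentation genes lie below 0, and contractile, oxidative phosphorylation and matrix genes lie near 0.

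Metabolic lists moved little. Of 25 oxidative phosphorylation genes, 1 was higher at a p under 0.05 and the median log2 fold change was -0.01. Of 27 genes of fatty acid use and PPARA targets, 2 were higher and 2 lower, the higher ones being the acyl-CoA thioesterase genes Acot1 (0.46 ± 0.16) and Acot2 (0.26 ± 0.08), both without overlap, though Acot1 met at 357 units. Of 21 glycolysis genes, none passed. In the eNOS signalling list, 3 of 19 genes were lower at a p under 0.05 and none was higher. Among genes of impulse conduction, Gja1, the connexin 43 gene, was at 16061 to 16589 units in Val/Met and 17829 to 18771 units in Met/Met hearts (0.17 ± 0.08). Cabp1 and Adora2b, genes the study named, had log2 fold changes of 0.29 ± 0.14 and 0.46 ± 0.32 and did not pass.

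Across all 77 called genes, the mean of the female Val/Val hearts lay between Val/Met and Met/Met in 58, nearer to Val/Met in 44 and nearer to Met/Met in 33. These genes were chosen for a gap between the other groups, so a mean between them is what the choice itself favours, and nothing is read from these counts. In males, 31 of the 77 changed in the same direction between Val/Met and Met/Met, against 50.5% of all genes tested, and 5 were also called there in that direction. The change differed between the sexes at a p under 0.05 and by 1.5-fold in 43 of the 77 and in 481 of all genes (3.5%), where the female change entered both the choice of the 77 and this difference.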

How the data were processed

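Whole-heart RNA-Seq of 31 mice was analysed from the deposited table of 13840 genes, whose values are a signal per gene and heart: the authors' normalized gene counts. Per the study's methods, stranded total RNA libraries were aligned to mm10 with STAR, quantified with Partek's expectation maximization model on Ensembl transcripts and normalized to total reads. The labels name other RNA and library kits, and the submitters' processing notes name STAR 3.5.1a and Partek. Of the values, 0.718% are whole numbers and none is 0. Quartiles were nearly equal in the 10 hearts (lower quartile 156.6 to 160.03, median 472 to 478, upper quartile 1233 to 1251), and single values recur exactly between hearts of a group.

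Genes with a mean of at least 29 units over 31 hearts were tested (13733) as log2(value + 0.0001) with limma 3.58.1 in R 4.3.3, with 1 mean per group and label series (14 means, 17 residual degrees of freedom), each heart of a group weighing the same, and moderation with a trend. Tests were two-sided, and p-values were adjusted by Benjamini and Hochberg over all genes tested. Fold changes are on the log2(value + 0.0001) scale. The interaction compared the female with the male change. The procedure was tested on simulated data. Gene positions come from the GENCODE M21 annotation (GRCm38) and promoters from RefSeq (GRCm38.p6). The study states that mice were matched by age and, in batches, by litter, but not which hearts shared a litter. The deviations of equally numbered Val/Met and Met/Met hearts (1, 2, 5 and 6) correlated at 0.348, 0.424, 0.236 and 0.13, and each label series holds mirrored Val/Met hearts, so these are not 4 separate checks. A fit with a replicate block was therefore set beside the reported one, which has none.

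The members and gene lists were chosen with earlier results of these data known. Named genes are the 10 largest rises and falls among called genes without overlap (and 8 of each among protein-coding ones), the genes with an adjusted p under 0.05 and 1.5-fold, the called members of each list or else its 2 smallest p-values, the genes the study named, and the 3 largest differences between the sexes in each direction among the first. Further clock genes were given to describe their list. Sult1a1, Timp4, Nppa, Hrc, Gm4841, F830016B08Rik, B2m, H2-K1, Bri3bp, Gm4613, Gm7206 and Gm5586 were chosen after their values were seen. Lists of lung markers and histones, and the neurotrophin receptor genes, were not analysed here, and single values of some named genes are not reported here. Alternatives were another offset, minimum, scaling, set of hearts, moderation and treatment of the label series, the replicate block, and leaving out each heart.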

Additional observations from a re-analysis of the deposited data

Results flagged for a closer look

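In 12 of the 64 genes followed, the change from Val/Met to Met/Met differed between female and male hearts at an adjusted p under 0.05. This used the interaction term of the limma fit, whose standard errors count the lone male heart of each genotype in series 2970 in full. Many of the 64 were chosen for their female change, which also enters this difference, so the choice itself favours the count. The 12 were counted at any fold. Of all 13733 genes tested, 32 passed an adjusted p under 0.05 with at least 1.5-fold in this term. That is a stricter rule, so the 32 are not a background for the 12. As female minus male change on the log2 scale, the clock genes were at -2.27 for Dbp, -0.62 for Tef, -0.99 for Bhlhe40 and 1.14 for Nfil3, and Tcap was at -0.98. The interferon and antigen presentation genes were at -2.03 for Igtp, -1.73 for Irgm2, -1.41 for B2m, -1.36 for H2-K1, -2.39 for H2-Q6 and -2.16 for H2-Q7, and Bri3bp was at 0.40. A single heart stood apart from its group in 1 gene of the 64, where chance gives about 1 in 20 groups. This was Met/Met replicate 2, the lowest of the Met/Met hearts for Atp2a2 at 588745 units, in a gene where the other 5 hearts shared 2 exact values. Groups of 4 Val/Met hearts could not be found to hold such a heart, since they consist of mirrored pairs.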

How the results depend on the processing

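The count of 77 genes became 43 with an offset of 29 units and 18 with a minimum mean of 290 units, a fit of fewer genes, and ranged from 72 to 119 when 1 heart was left out. It was highest without Val/Met replicate 1, where 57 of the 77 were shared, and without Val/Met replicate 2 it was 91, with 45 shared. The 4 genes at an adjusted p became 11 with 1 mean per group, 11 with an additive term for the label series and 2 with the replicate block, and ranged from 2 to 9 when 1 heart was left out (9 without Val/Met replicate 2, and 2 without Val/Met replicate 1 or 6 or Met/Met replicate 3, 4 or 5). The fits with 1 mean per group or an additive term count the label series means, equal within each group, among the residual degrees of freedom. The 481 genes of the interaction became 300 with an offset of 29 units and 121 with a minimum mean of 290 units, and ranged from 351 to 785 when 1 heart was left out, with 785 without female Val/Met replicate 1, 781 without female Met/Met replicate 2 and 728 without male Met/Met replicate 1. With the replicate block 83 genes were called, 59 of them shared, and among the named genes Timp4, Iigp1, H2-Q6 and Fut2 lost their call at an unadjusted p and no other call changed. Rorb, near 0 throughout, was at -0.020 with the replicate block and at values from -0.049 to 0.076 when 1 heart was left out. Dbp and Tcap kept an adjusted p under 0.05 in all settings tried. The cause of these shifts was not tested. An offset of 29 units took Fam124b, Cma1, Dnd1, Inhbb, Angptl7, Chrdl1, Timp4, H2-Q6 and H2-Q7 under 1.5-fold, most of them at low values. In the fit of the 10 hearts alone the calls of Igtp, Irgm2, Iigp1, H2-Q6 and H2-Q7 were lost.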
